A study of Mus musculus with 8 samples.

Results

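Natural killer (NK) cells were described among CD45+ cells that had been sorted from MC38 tumours and profiled by droplet single-cell RNA sequencing. A barcode counted as an NK cell when Ncr1 and Klrb1c together held at least 2 unique molecular identifiers (UMIs), Cd3d, Cd3e and Cd3g together held at most 1, Cd8a and Cd8b1 together held at most 1, and C1qa, C1qb, C1qc, Apoe and Lyz2 together stayed below 100 per 10000 UMIs. The cells were thus selected on the measured UMIs of these genes, and 640 of 37757 barcodes were chosen. LNP-Sirpa replicates 1 and 2 gave 307 of 10348 and 58 of 9008 barcodes, and control replicates 1 and 2 gave 170 of 7511 and 105 of 10890. The genes of the rule chose the cells, so their levels are no finding here.

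MC38 is a mouse colon carcinoma line, CD45 marks white blood cells, and the mice were of wild-type genotype per the labels. There were 2 LNP-Sirpa libraries, for which the series title speaks of SIRPα degradation directed at the tumour, and 2 control libraries. What the control mice were given, the age of the mice and whether replicates came from separate animals are not stated in the labels, so p-values measure the spread between these libraries, which may be technical. All libraries carry the same batch label. The matching oligo libraries were not analysed here.

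NK cells are innate lymphocytes that kill stressed, infected or transformed cells without rearranged antigen receptors. Activating receptors such as NKp46 (Ncr1), NKG2D (Klrk1) and NK1.1 (Klrb1c) signal through adaptors such as DAP10 (Hcst), DAP12 (Tyrobp) and the Fc receptor gamma chain (Fcer1g), and most Ly49 receptors and CD94/NKG2A, which bind MHC class I, restrain them. Killing proceeds by release of perforin and granzymes from granules, and chemokines such as XCL1 and CCL5 made by NK cells draw dendritic cells into tumours.

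The deposited matrices held 85810250 and 70581678 UMIs in LNP-Sirpa replicates 1 and 2, and 68654004 and 90789729 in control replicates 1 and 2. NK sums took 3089339 and 463211 of these UMIs in the LNP-Sirpa libraries, against 2215160 and 1169190 in the controls, and LNP-Sirpa replicate 2 thus rests on the fewest cells and UMIs. A median NK cell held 7714 and 5847 UMIs in the LNP-Sirpa libraries, against 11974.5 and 8411 UMIs in the controls. Levels are given as counts per 1000000 UMIs of the cell class in a library (CPM). Correlations of log CPM between NK sums ran from 0.895 to 0.912 for pairs with LNP-Sirpa replicate 2, and from 0.94 to 0.957 among the other 3 libraries. Libraries shared between 830 and 1242 cell names per pair, but the names hold no barcode sequence, so shared cells could not be counted.

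The label was checked against markers outside the rule. Perforin (Prf1) was detected in 94.5% and 94.8% of LNP-Sirpa NK cells, against 90% and 88.6% of control NK cells. Klra8, the activating receptor Ly49H, was detected in 41% and 29.3% of LNP-Sirpa NK cells, against 43.5% and 41% of control NK cells, and in at most 1.18% of CD8 T cells of any library. The transcription factors Eomes and Tbx21 were detected in 37.9% to 54.4% and in 48.3% to 60.6% of NK cells across libraries. Highest relative to the remaining barcodes stood Gzmc, Gzma, Gzmd, Car2, Gzme, Prf1, Klra7 and Klra8, with mean log2 differences of 5.64, 5.02, 4.4, 4.14, 4.1, 3.98, 3.96 and 3.88. These markers carry the label, and the differences are a description without a test. Group 1 innate lymphoid cells other than NK cells share both receptors and would pass the rule too. With cells thinned to 2000 UMIs each, the tissue residency integrin gene Itga1 was detected in 16.1% and 15.8% of LNP-Sirpa NK cells, against 11.9% and 13.7% of control NK cells. Another integrin gene, Itga2, stood lower. In cells with an Ncr1 UMI, Itga2 stood at 13.6 and 10.8 CPM in LNP-Sirpa libraries, against 5.77 and 9.91 CPM in controls. Itga1 stood there at 92.4 and 68.4 CPM, against 90.9 and 86.2 CPM. The rule thus cannot separate NK cells from other group 1 innate lymphoid cells.

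UMIs of marker genes of other cell types were present in the NK sums. Whether NK cells themselves made part of these UMIs was not tested. Summed over 16 macrophage markers, 4425 and 3165 CPM were found in LNP-Sirpa NK cells, against 4224 and 3132 CPM in control NK cells. Of these markers only Cd163 was at 0, in LNP-Sirpa replicate 2. Spp1, a member of this list, held most of the sum in every library, and its source was not tested. It stood at 260% and 61.1% of its phagocyte level in LNP-Sirpa NK cells, against 138% and 158% in control NK cells. Without Spp1 the list held 5468 and 609 UMIs in LNP-Sirpa NK cells, against 3098 and 1353 UMIs in control NK cells. Csf1r, the macrophage growth factor receptor, stood at 17.1% and 13.9% of its phagocyte level in LNP-Sirpa NK cells, against 16.9% and 12.9% in control NK cells. Csf1r UMIs also helped to choose the phagocytes, which can raise its phagocyte level and lower these percentages. A T cell list held 466 and 546 CPM in LNP-Sirpa NK cells, against 434 and 431 CPM in control NK cells, and at least 1 CD3 or CD8 UMI was present in 28.7% and 20.7% of LNP-Sirpa NK cells, against 18.2% and 26.7% of control NK cells. Of 12 T cell markers Cd40lg was at 0 in every library, and Foxp3 in LNP-Sirpa replicate 2. Neutrophil markers summed to 465 and 60.4 CPM in LNP-Sirpa NK cells, against 13.5 and 15.4 CPM in control NK cells, with Cxcr2 and Ly6g at 0 in all but LNP-Sirpa replicate 1. Mast cell or basophil markers summed to 384 and 6.48 CPM in LNP-Sirpa NK cells, against 31.6 and 13.7 CPM in control NK cells. Dendritic cell markers summed to 162 and 373 CPM in LNP-Sirpa NK cells, against 107 and 219.8 CPM in control NK cells. The high sums among these 3 lists rested on a few barcodes. In LNP-Sirpa replicate 1, 5 barcodes with at least 20 neutrophil UMIs held 77.9% of these UMIs and 3 barcodes held 86.2% of mast cell or basophil UMIs. In LNP-Sirpa replicate 2, 2 barcodes held 84.4% of dendritic cell UMIs. Barcodes rich in another cell type's UMIs held at least 20 UMIs of 1 list, Spp1 left out. The lists were those of macrophages, neutrophils, mast cells or basophils, dendritic cells, B cells and fibroblasts, without the T cell list. Such barcodes numbered 58 and 6 in LNP-Sirpa libraries, against 42 and 20 in controls. For fibroblast UMIs alone they numbered 6 and 1 in LNP-Sirpa libraries, against 6 and 6 in controls.

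NK cells were not uniformly more frequent in LNP-Sirpa tumours. They made up 2.97% (2.66 to 3.31) and 0.644% (0.498 to 0.831) of barcodes in the LNP-Sirpa libraries, against 2.26% (1.95 to 2.62) and 0.964% (0.797 to 1.17) in the controls (95% Wilson intervals, counting error only). The means of 1.81 ± 1.64% in LNP-Sirpa and 1.61 ± 0.919% in control libraries (SD, n = 2 each) differed by 0.16 on the log2 scale, and the exact two-sided permutation test gave p = 1, with 0.3333 the smallest p that 2 against 2 libraries allow. The groups overlapped, with 1 library of each above 2%. Phagocytes lay at or above the limit, with at least 2 UMIs of Csf1r, Cd68 and Adgre1 together and at most 1 NK receptor, CD3 or CD8 UMI. So defined, phagocytes made up 25.2% and 38.2% of barcodes in LNP-Sirpa libraries, against 58.9% and 60% in controls. Among barcodes below the phagocyte limit, NK cells made up 5.28% (4.73 to 5.88) and 1.26% (0.977 to 1.63) in LNP-Sirpa libraries, against 7.35% (6.36 to 8.49) and 4.06% (3.36 to 4.89) in controls, and the log2 difference was then −0.80 (exact permutation p = 0.667). Each CD8 T cell was matched by 0.394 and 0.111 NK cells in LNP-Sirpa libraries, against 2.0 and 0.278 in controls, a log2 difference of −1.84 (exact permutation p = 0.667). The CD8 T cells themselves numbered 779 and 524 in LNP-Sirpa libraries, against 85 and 378 in controls.

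**Figure D1:**
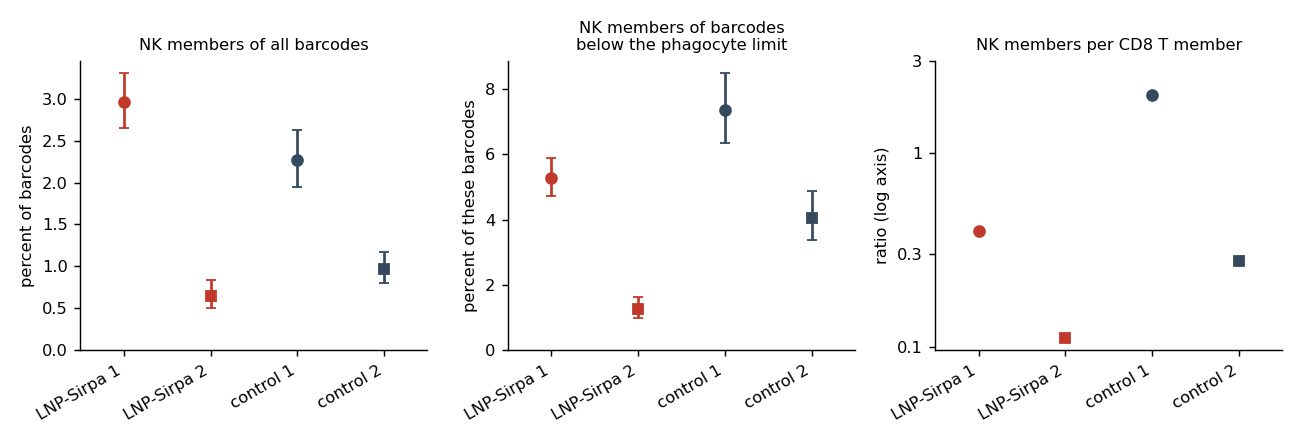
NK cells in each library as a percentage of all barcodes (left), as a percentage of barcodes below the phagocyte limit (middle; bars are 95% Wilson intervals) and per CD8 T cell (right, log axis), LNP-Sirpa libraries left of controls. The LNP-Sirpa and control libraries overlapped in all 3 panels.

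The limits of the rule removed many barcodes that carried NK receptor UMIs. At least 2 receptor UMIs were found in 711 and 146 barcodes of LNP-Sirpa libraries, against 302 and 297 of controls. The T cell limits alone left out 179 and 50 of these in LNP-Sirpa libraries, against 28 and 33 in controls. The phagocyte limit alone left out 105 and 12 in LNP-Sirpa libraries, against 77 and 105 in controls. Just inside the receptor threshold, with 2 UMIs, lay 51 and 13 barcodes in LNP-Sirpa libraries, against 23 and 22 in controls, with Prf1 at 1145 and 1341 against 515 and 886 CPM. Just outside, with 1 receptor UMI, lay 132 and 38 barcodes in LNP-Sirpa libraries, against 80 and 45 in controls, with Prf1 at 358 and 209 against 73.1 and 169 CPM. Ncr1 and Klrb1c were both detected in 74.9% and 50% of LNP-Sirpa NK cells, against 80% and 77.1% of control NK cells.

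Across genes, 48 of 9366 tested in NK sums differed between LNP-Sirpa and control at an edgeR adjusted p under 0.05, which is 0.512% of genes. Of these, 39 (0.416%) were higher and 9 (0.0961%) were lower in LNP-Sirpa NK cells. At an unadjusted p under 0.05 stood 842 genes, and the median log2 difference of all tested genes was near 0. Without regard to the test, the libraries of the groups did not overlap for 37.3% of genes, with 19.3% higher and 17.9% lower in LNP-Sirpa NK cells. The same test called 126 of 11206 genes in CD8 T cells (1.12%, with 1.02% higher and 0.107% lower) and 14 of 15282 in phagocytes (0.0916%, with 0.0785% higher and 0.0131% lower). On simulated NK sums the test recovered 28% of genes changed by 1 and 83.5% of genes changed by 2 on the log2 scale, and a gene that did not pass was thus not shown to be unchanged. Other settings gave between 7 and 408 called genes. In the 219 and 46 LNP-Sirpa and 139 and 77 control NK cells without any T cell UMI, 9 genes passed, 8 of them among the 48. Of the 17 named genes that passed, Gzmb, Pglyrp1 and AA467197 did so there too. At a phagocyte limit of 25 per 10000, 7 genes passed, and Arg1, Cyc1, Gzmb and Pglyrp1 were the 4 shared with the 48. Without the barcodes rich in another cell type's UMIs 80 genes passed, 20 of them among the 48, and the named genes Arg1, Ccl1, Cmtm7, Ifitm3, Jarid2 and Samhd1 did not pass. Without the 5% highest Scrublet doublet scores, Agpat3, Cmtm7, Ifitm3, Isg20, Jarid2, Nfkbiz and Samhd1 did not pass. With DESeq2, Agpat3, Cmtm7, Cyc1, Emc6, Ifi213, Isg20, Nfkbiz and Samhd1 did not, and with cells thinned to 2000 UMIs AA467197, Cmtm7, Cyc1, Emc6, Isg20, Jarid2 and Samhd1 did not.

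Among the granule genes, granzyme A and granzyme B, serine proteases that perforin delivers into target cells, were higher in LNP-Sirpa NK cells, while perforin and granzyme C did not pass the test. Gzma stood at 4641 and 8225 CPM in LNP-Sirpa NK cells, against 1880 and 1709 CPM in control NK cells. Both LNP-Sirpa libraries lay above both controls, with means of 6433 ± 2534 and 1794 ± 121 CPM (SD, n = 2 each) and a log2 difference of 1.87 ± 0.30 (SE, edgeR adjusted p = 0.0145). Gzmb stood at 1879 and 2096 CPM in LNP-Sirpa NK cells, against 924 and 801 CPM in control NK cells. Its groups did not overlap either, with a log2 difference of 1.21 ± 0.22 (SE, edgeR adjusted p = 0.0237). Without any 1 library the Gzma log2 difference lay between 1.29 and 2.28. The Gzmb call was lost without control replicate 1 (1.30) or control replicate 2 (1.13). Fits without 1 library leave 1 library in a group and called more genes than the full fit, so a pass in them was not read as support. Without barcodes that held any T cell UMI, Gzma had a log2 difference of 1.92 (edgeR adjusted p = 0.101), and at a phagocyte limit of 25 per 10000 it had 1.56 (edgeR adjusted p = 0.057).

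The shares of cells showed the same order after thinning to 2000 UMIs. Gzma was detected in 72.5% (67.2 to 77.2) and 78.9% (66.7 to 87.5) of LNP-Sirpa NK cells, against 34.5% (27.8 to 42) and 46.1% (36.7 to 55.7) of control NK cells. Gzmb was detected in 77.2% (72.1 to 81.6) and 82.5% (70.6 to 90.2) of LNP-Sirpa NK cells, against 52.4% (44.9 to 59.8) and 48% (38.6 to 57.6) of control NK cells. Unthinned, the shares were 83.4% and 84.5% against 40.6% and 57.1% for Gzma, and 90.6% and 89.7% against 78.2% and 73.3% for Gzmb, LNP-Sirpa libraries first. For both genes the intervals of the LNP-Sirpa libraries lay above those of the controls. The thinning kept 298 and 57 of the LNP-Sirpa NK cells, and 168 and 102 of the control NK cells. In phagocytes, which should lack Gzma, it was detected in 5.68% and 3.44% of thinned LNP-Sirpa cells, against 1.23% and 0.731% of thinned control cells. The background share was thus higher in LNP-Sirpa libraries too, at a level far below the NK shares, and its part in the result was not tested.

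CD8 T cells gave a comparison for the same proteases. Gzmb in CD8 T cells stood at 709 and 1008 CPM in LNP-Sirpa libraries, against 272 and 254 CPM in controls, with a log2 difference of 1.76 (edgeR adjusted p = 0.00516). Gzma in CD8 T cells stood at 110 and 1916 CPM in LNP-Sirpa libraries, against 116 and 26.1 CPM in controls, so that LNP-Sirpa replicate 2 alone was high there.

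The 5′ ends of both genes are shown because Gzma and Gzmb rose together. The windows hold 250 bases before and 50 bases after the gene start, from RefSeq on GRCm38.p6, on the strand of the gene. Capitals mark the RUNX motif TGTGGTT, the T-box core GGTGTGA and the interferon response element, which is GAAA, 2 bases of any kind and GAAA again, each searched on both strands. In Gzma, chr13:113100932-113101231 on the minus strand, the other strand held RUNX at position 200 and the interferon response element at position 154, counted from 1 at the 5′ end. In Gzmb, chr14:56262285-56262584 on the minus strand, the given strand held RUNX at position 217.
Gzma: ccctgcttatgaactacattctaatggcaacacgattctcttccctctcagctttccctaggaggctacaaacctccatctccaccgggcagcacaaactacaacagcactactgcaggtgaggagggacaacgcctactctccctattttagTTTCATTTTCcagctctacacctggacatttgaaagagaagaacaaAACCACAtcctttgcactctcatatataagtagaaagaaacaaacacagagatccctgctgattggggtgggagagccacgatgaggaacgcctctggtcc
Gzmb: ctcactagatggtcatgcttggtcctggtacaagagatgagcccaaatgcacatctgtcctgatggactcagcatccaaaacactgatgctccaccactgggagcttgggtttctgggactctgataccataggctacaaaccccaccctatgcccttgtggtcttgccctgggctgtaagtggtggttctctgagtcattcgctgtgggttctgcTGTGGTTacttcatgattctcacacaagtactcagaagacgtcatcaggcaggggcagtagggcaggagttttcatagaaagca
Of 32851 mouse promoter windows of this length, 5.27% held RUNX, 3.98% the T-box core and 3.44% the interferon response element. A match describes these letters and shows no binding.

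Total granzyme RNA differed little between the groups while its make-up differed. The 9 granzyme genes together held 22374.7 and 20524.1 CPM in LNP-Sirpa NK cells, against 23024.5 and 22950.1 CPM in control NK cells. Gzma made up 20.7% and 40.1% of granzyme UMIs in LNP-Sirpa NK cells, against 8.16% and 7.45% in control NK cells. Gzmc, a granzyme of activated killer cells in mice, made up 42.4% and 35.9% in LNP-Sirpa NK cells, against 59.4% and 59.6% in control NK cells. Among cells with a granzyme UMI, Gzma was the most abundant granzyme in 45.4% and 69.6% of LNP-Sirpa NK cells, against 14.9% and 25% of control NK cells. Gzmc was the most abundant in 39.8% and 25% of LNP-Sirpa NK cells, against 71.4% and 66.3% of control NK cells. The shift was thus visible per cell in all 4 libraries, and this measure was chosen after the levels had been seen, so it carries no test.

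Gzmc itself stood at 9490 and 7372 CPM in LNP-Sirpa NK cells, against 13669 and 13672 CPM in control NK cells, a log2 difference of −0.70 ± 0.24 (SE, edgeR adjusted p = 0.317). After thinning, 57.4% and 38.6% of LNP-Sirpa NK cells held a Gzmc UMI, against 79.8% and 75.5% of control NK cells (68.4% and 46.6% against 85.3% and 85.7% unthinned). Gzmd, a close paralog, stood at 1595 and 920 CPM in LNP-Sirpa NK cells, against 2519 and 2303 CPM in control NK cells, with a log2 difference of −0.95 ± 0.24 (SE, edgeR adjusted p = 0.117). Neither gene passed, although neither overlapped between the groups. Gzmf stood at 3352 and 1200 CPM in LNP-Sirpa NK cells, against 2447 and 2805 CPM in control NK cells, and 1 cell held 3571 of its 10356 UMIs in LNP-Sirpa replicate 1. Gzmc, Gzmd, Gzme, Gzmf and Gzmg are near-identical paralogs, and the authors' counting could have divided reads among them.

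Prf1 stood at 1455 and 1410 CPM in LNP-Sirpa NK cells, against 1074 and 970 CPM in control NK cells, with a log2 difference of 0.49 ± 0.21 (SE, edgeR adjusted p = 0.479). It did not pass, although its groups did not overlap. Over the 26 cytotoxic granule and death ligand genes, 23 were tested, 2 rose (Gzma and Gzmb), none fell, and the median log2 difference was 0.02. The list median thus lay close to that of all genes.

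Cells with and without a Gzma UMI were compared within each library after thinning, as a description. Gzmb was detected in 84.2% and 83.3% of Gzma-positive LNP-Sirpa NK cells, and in 61.4% and 55.1% of Gzma-positive control NK cells. Among cells without a Gzma UMI, Gzmb was detected in 54.5% and 73.3% of LNP-Sirpa cells, and in 49.5% and 41.5% of control cells. Gzmc was detected in Gzma-positive against Gzma-negative cells at 53.8% against 66.2% and 31% against 73.3% in LNP-Sirpa replicates 1 and 2, and at 73.7% against 82% and 69.4% against 86.8% in control replicates 1 and 2. Ccl5, a chemokine, was detected in 59.7% and 78.6% of Gzma-positive LNP-Sirpa cells, and in 31.6% and 40.8% of Gzma-positive control cells. Without a Gzma UMI, Ccl5 was detected in 29.9% and 33.3% of LNP-Sirpa cells, and in 16.2% and 28.3% of control cells. In every library Gzmb and Ccl5 were thus found in a larger share of cells with a Gzma UMI, and Gzmc in a smaller share. The Wilson intervals of both subsets overlapped for each of these genes in both control libraries. They also overlapped for Gzmb in LNP-Sirpa replicate 2 and for Gzmc in LNP-Sirpa replicate 1. They lay apart for Gzmb in LNP-Sirpa replicate 1, for Ccl5 in both LNP-Sirpa libraries and for Gzmc in LNP-Sirpa replicate 2. LNP-Sirpa replicate 2 had only 15 cells without a Gzma UMI.

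**Figure D2:**
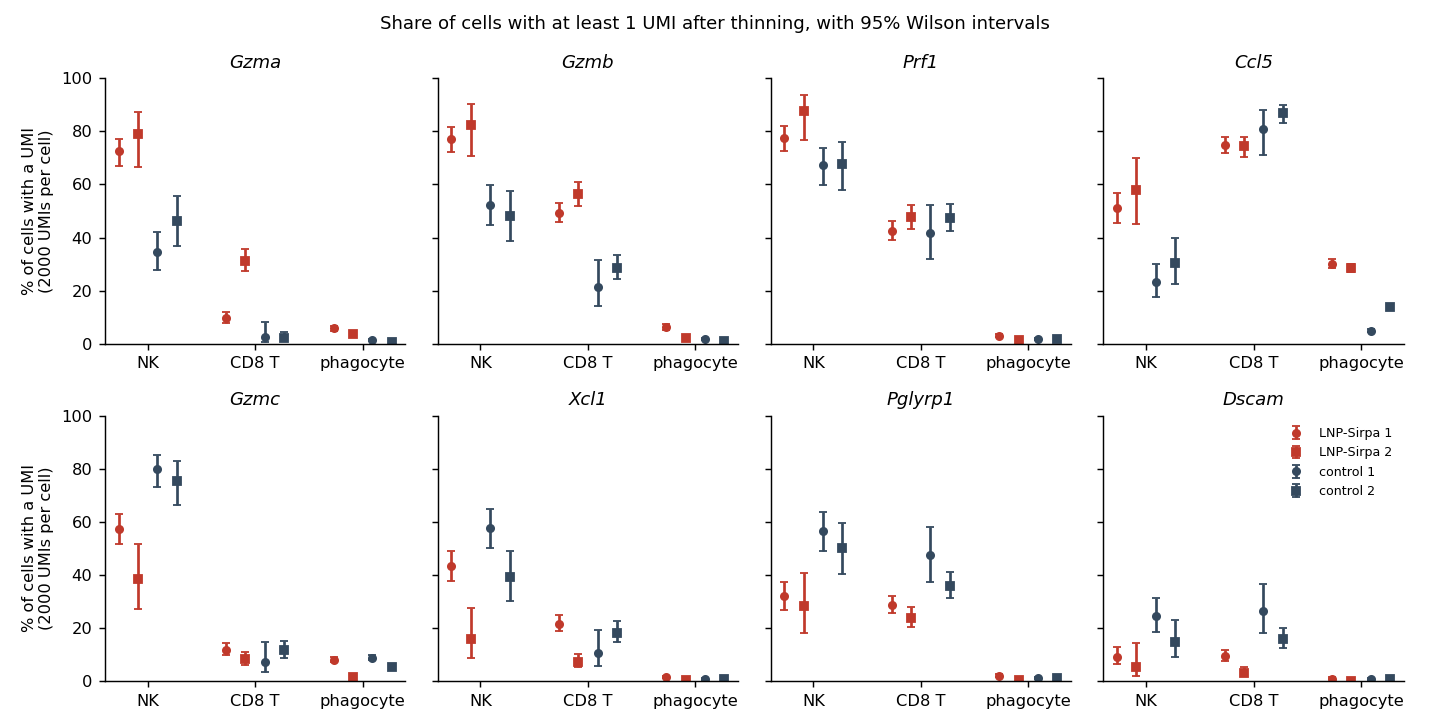
Percentage of cells with at least 1 UMI of 8 genes after thinning to 2000 UMIs per cell, in NK cells, CD8 T cells and phagocytes of each library, with 95% Wilson intervals. Gzma and Gzmb were detected in more LNP-Sirpa NK cells than control NK cells, and Gzmc, Pglyrp1 and Dscam in fewer.

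Secreted cytokines and chemokines of NK cells were mixed. Of 16 listed genes 12 were tested, none rose, 1 fell (Ccl1), and the median log2 difference was 0.58. Ccl1, the ligand of the chemokine receptor CCR8, stood at 13.3 and 2.16 CPM in LNP-Sirpa NK cells, against 172 and 229 CPM in control NK cells. The log2 difference was −4.22 ± 0.34 (SE, edgeR adjusted p = 7.9e-05), and it rested on few cells. Ccl1 UMIs numbered 41 in 16 cells and 1 in 1 cell of LNP-Sirpa replicates 1 and 2, against 381 in 22 cells and 268 in 7 cells of control replicates 1 and 2, where 1 cell of control replicate 2 held 244. Without the highest cell of each library Ccl1 stood at 6.83 CPM in LNP-Sirpa replicate 1 and had no UMI left in LNP-Sirpa replicate 2, against 125 and 21.1 CPM in control NK cells. Without barcodes that held a T cell UMI, the log2 difference was −2.70 and did not pass (edgeR adjusted p = 0.703). It also did not pass without barcodes rich in another cell type's UMIs (−3.93, edgeR adjusted p = 0.082) or at a phagocyte limit of 25 per 10000 (−4.24, edgeR adjusted p = 0.24). After thinning, Ccl1 was detected in 2.35% and 1.75% of LNP-Sirpa NK cells, against 5.95% and 4.9% of control NK cells, with intervals that overlapped.

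The chemokine genes Ccl5 and Ccl4 stood higher in both LNP-Sirpa libraries without passing. Ccl5 stood at 1715 and 3422 CPM in LNP-Sirpa NK cells, against 352 and 613 CPM in control NK cells, with a log2 difference of 2.44 ± 0.49 (SE, edgeR adjusted p = 0.168). It passed without control replicate 1 (2.08, edgeR adjusted p = 0.0013) and without control replicate 2 (2.91, edgeR adjusted p = 9.6e-07). After thinning, 51% (45.4 to 56.6) and 57.9% (45 to 69.8) of LNP-Sirpa NK cells held a Ccl5 UMI, against 23.2% (17.5 to 30.2) and 30.4% (22.3 to 39.9) of control NK cells (74.6% and 89.7% against 44.7% and 51.4% unthinned). The Ccl5 intervals of the groups did not overlap. In phagocytes the thinned Ccl5 shares were 30.1% and 28.5% in LNP-Sirpa libraries, against 4.83% and 13.8% in controls, so its background could not be read from them. Ccl4 stood at 1055 and 1073 CPM in LNP-Sirpa NK cells, against 576 and 584 CPM in control NK cells. Its log2 difference was 0.88 ± 0.21 (SE, edgeR adjusted p = 0.0816). In LNP-Sirpa replicate 2, 1 cell held 167 of 497 Ccl4 UMIs. Without the highest cell of each library, Ccl4 levels were 1026 and 727 CPM in LNP-Sirpa libraries, against 483 and 505 CPM in controls. Thinned shares were 50.3% and 54.4% in LNP-Sirpa libraries, against 39.3% and 42.2% in controls, with intervals that overlapped.

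Xcl1, the lymphotactin that attracts cross-presenting dendritic cells, stood at 616 and 207 CPM in LNP-Sirpa NK cells, against 1254 and 692 CPM in control NK cells. The log2 difference was −1.23 ± 0.58 (SE, edgeR adjusted p = 0.694), and it passed without control replicate 2 (−1.60, edgeR adjusted p = 0.00102) and without LNP-Sirpa replicate 1 (−2.15, edgeR adjusted p = 0.045). LNP-Sirpa replicate 1 and control replicate 2 lay close together, and after thinning Xcl1 was detected in 43.3% and 15.8% of LNP-Sirpa NK cells, against 57.7% and 39.2% of control NK cells (60.6% and 31% against 77.1% and 63.8% unthinned). Ifng, which encodes interferon gamma, stood at 195 and 184 CPM in LNP-Sirpa NK cells, against 233 and 157 CPM in control NK cells, and the groups overlapped (log2 difference −0.06 ± 0.22, SE, edgeR adjusted p = 0.98).

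**Figure D3:**
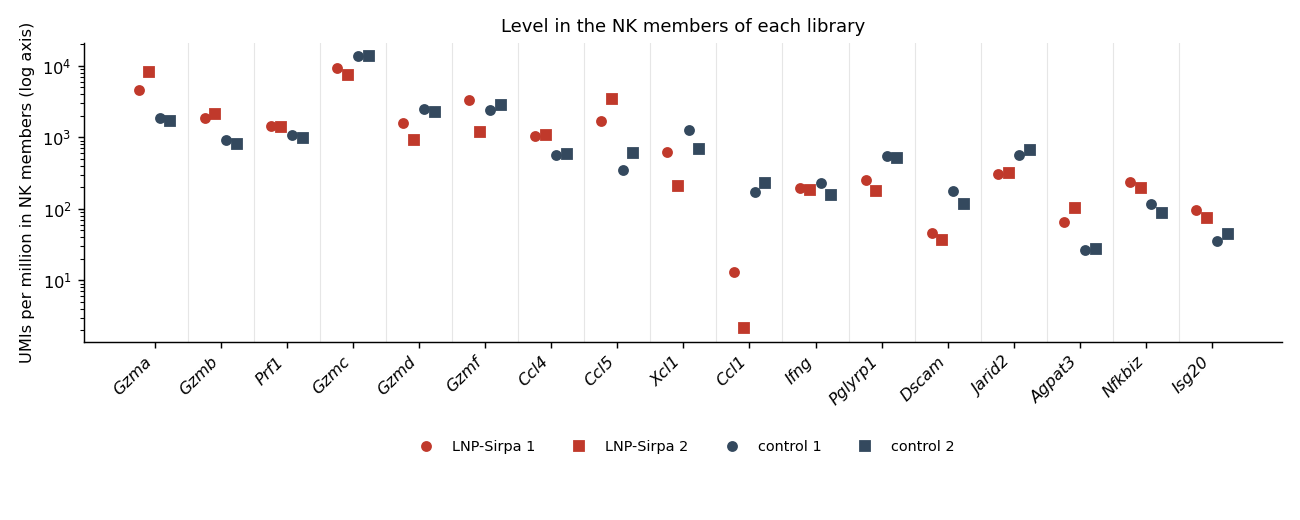
Level of 17 genes in NK sums of each library in CPM on a log axis, with LNP-Sirpa libraries left of controls. Gzma, Gzmb, Prf1, Ccl4, Ccl5, Agpat3, Nfkbiz and Isg20 stood higher in both LNP-Sirpa libraries, and Gzmc, Gzmd, Xcl1, Ccl1, Pglyrp1, Dscam and Jarid2 lower in both.

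Among genes with a mean of at least 50 CPM, 4 fell: Ccl1, Dscam, Pglyrp1 and Jarid2. Pglyrp1, a peptidoglycan recognition protein that is also stored in granules, stood at 255 and 177 CPM in LNP-Sirpa NK cells, against 557 and 517 CPM in control NK cells. The log2 difference was −1.30 ± 0.20 (SE, edgeR adjusted p = 0.00894), and it passed in all 16 alternatives, between −1.52 and −1.16, with the highest edgeR adjusted p at 0.0371. Thinned shares of 31.9% (26.8 to 37.4) and 28.1% (18.1 to 40.8) in LNP-Sirpa NK cells lay below 56.5% (49 to 63.8) and 50% (40.5 to 59.5) in control NK cells (63.8% and 51.7% against 88.2% and 84.8% unthinned), though the upper bound of LNP-Sirpa replicate 2 reached the lower bound of control replicate 2. In CD8 T cells Pglyrp1 stood at 177 and 150 CPM in LNP-Sirpa libraries, against 403 and 245 CPM in controls, so the order was shared.

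The start of Pglyrp1, chr7:18884440-18884739 on the plus strand of GRCm38.p6, is shown because its fall was the steadiest among the named genes. Its given strand held the T-box core at position 173, marked in capitals.
Pglyrp1: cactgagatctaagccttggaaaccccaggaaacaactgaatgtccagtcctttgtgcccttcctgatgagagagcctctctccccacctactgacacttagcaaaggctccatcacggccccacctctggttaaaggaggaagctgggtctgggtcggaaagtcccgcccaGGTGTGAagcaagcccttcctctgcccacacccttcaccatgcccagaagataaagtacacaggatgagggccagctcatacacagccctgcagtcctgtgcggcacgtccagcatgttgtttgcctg
As given above, 3.98% of windows held this core. The window of Ccl1, searched in the same way, held none of the 3 motifs and is not printed, which says only that these letters are not in it.

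Dscam, a cell adhesion molecule best known from neurons, stood at 46.3 and 36.7 CPM in LNP-Sirpa NK cells, against 175 and 115 CPM in control NK cells. The log2 difference was −1.79 ± 0.26 (SE, edgeR adjusted p = 0.00471), and it ran from −2.04 to −1.27 in 16 alternatives. The call was lost in cells without a T cell UMI. The Dscam call was also lost at a phagocyte limit of 25 per 10000. After thinning, Dscam was detected in 9.06% (6.3 to 12.9) and 5.26% (1.81 to 14.4) of LNP-Sirpa NK cells. In control NK cells it was detected in 24.4% (18.5 to 31.4) and 14.7% (9.12 to 22.9). Both LNP-Sirpa intervals overlapped that of control replicate 2. Unthinned, Dscam was detected in 20.2% and 6.9% of LNP-Sirpa NK cells, against 65.3% and 46.7% of control NK cells. CD8 T cells had 63.5 and 13.3 CPM of Dscam in LNP-Sirpa libraries, against 172 and 83.5 CPM in controls. Jarid2, a cofactor of the Polycomb repressive complex that methylates histone H3, stood at 310 and 320 CPM in LNP-Sirpa NK cells, against 574 and 664 CPM in control NK cells (log2 difference −0.98 ± 0.20, SE, edgeR adjusted p = 0.048). In control replicate 1, 1 cell held 343 of 1272 Jarid2 UMIs, and thinned shares of 49% and 45.6% in LNP-Sirpa against 44% and 43.1% in control NK cells were not lower. The Jarid2 call was lost without control replicate 1 (edgeR adjusted p = 0.0578) or control replicate 2 (edgeR adjusted p = 0.296).

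Agpat3, an acyltransferase of phospholipid synthesis, stood at 65.7 and 101 CPM in LNP-Sirpa NK cells, against 26.2 and 27.4 CPM in control NK cells. The log2 difference was 1.54 ± 0.29 (SE, edgeR adjusted p = 0.0275), and it ran from 1.22 to 2.03 in 16 alternatives. It did not pass with DESeq2, without the 5% highest Scrublet scores, in cells without a T cell UMI or at a phagocyte limit of 25 per 10000. In CD8 T cells Agpat3 stood at 43.5 and 40.7 CPM in LNP-Sirpa libraries, against 43.7 and 45.1 CPM in controls, and in phagocytes at 26.7 and 14.6 CPM in LNP-Sirpa libraries, against 41.9 and 34.9 CPM in controls. The treatment difference of Agpat3 in NK cells exceeded that in CD8 T cells by 1.56 (edgeR adjusted p = 0.0142 for the interaction) and that in phagocytes by 2.22 (edgeR adjusted p = 0.000335). The difference from CD8 T cells did not pass without control replicate 2 (edgeR adjusted p = 0.0613). Nfkbiz, an inducible regulator of NF-kB target genes, stood at 239 and 194 CPM in LNP-Sirpa NK cells, against 116 and 88.1 CPM in control NK cells (log2 difference 1.08 ± 0.21, SE, edgeR adjusted p = 0.0342). Nfkbiz was the only 1 of 16 NF-kB and TNF response genes to pass, and the list median was 0.14. It did not pass without control replicate 2 (0.92, edgeR adjusted p = 0.268).

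Receptors that define how NK cells see their targets showed no called change. None of 15 tested activating receptor genes of 16 listed, 20 of 21 inhibitory receptor genes or 17 of 17 signalling adaptor genes passed, with median log2 differences of −0.09, 0.22 and 0.09. Klrk1 (NKG2D) stood at 234 and 199 CPM in LNP-Sirpa NK cells, against 301 and 203 CPM in control NK cells. Klrd1 (CD94), the partner of NKG2 chains, stood at 371 and 468 CPM in LNP-Sirpa NK cells, against 453 and 376 CPM in control NK cells. Both overlapped between the groups, with log2 differences of −0.23 ± 0.22 and 0.01 ± 0.22 (SE). Klra8 stood at 211 and 177 CPM in LNP-Sirpa NK cells, against 231 and 192 CPM in control NK cells, a log2 difference of −0.13 ± 0.20 (SE). Tyrobp, the DAP12 adaptor, stood at 4344 and 3605 CPM in LNP-Sirpa NK cells, against 3804 and 4010 CPM in control NK cells. Fcer1g, an adaptor of NKp46 and Fc receptors, stood at 2708 and 3318 CPM in LNP-Sirpa NK cells, against 2037 and 2113 CPM in control NK cells, and did not pass (log2 difference 0.55 ± 0.23, SE, edgeR adjusted p = 0.472). Klrb1b, an inhibitory receptor for Clr proteins, stood at 155 and 186 CPM in LNP-Sirpa NK cells, against 219 and 245 CPM in control NK cells (−0.47 ± 0.21, SE, edgeR adjusted p = 0.514).

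Transcription factors and maturation genes were likewise without a called change apart from Gzma. None of 23 tested NK transcription factor genes of 26 listed passed, with a median of 0.06. Id2, which NK development requires, stood at 1168 and 1338 CPM in LNP-Sirpa NK cells, against 1093 and 1048 CPM in control NK cells. Zeb2, a factor of terminal NK maturation, stood at 292 and 192 CPM in LNP-Sirpa NK cells, against 153 and 154 CPM in control NK cells, with a log2 difference of 0.67 ± 0.21 (SE, edgeR adjusted p = 0.222). Late maturation genes had 1 of 10 tested members (Gzma) higher and a median of 0.51, and early maturation genes had none of 12 and a median of −0.03. Homing receptors (20 tested of 23) and cytokine receptors with their feedback genes (26 of 27) had no called member and medians of 0.19 and 0.13. Il2rb, the receptor chain shared by interleukin 2 and interleukin 15, stood at 773 and 594 CPM in LNP-Sirpa NK cells, against 608 and 625 CPM in control NK cells. The activation marker Tnfrsf9 (4-1BB) stood at 729 and 630 CPM in LNP-Sirpa NK cells, against 653 and 589 CPM in control NK cells. Both overlapped between the groups, with log2 differences of 0.15 ± 0.20 and 0.13 ± 0.20 (SE).

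Taken as a list, interferon response genes stood high in NK cells of LNP-Sirpa replicate 1 only. Of 41 type I interferon response genes 32 were tested in NK sums, Isg20 and Ifi213 rose, none fell, and the median log2 difference was 1.40, against 1.90 in CD8 T cells and 2.11 in phagocytes. Without LNP-Sirpa replicate 1 the NK median was 0.04. The list held 3952 and 1194 CPM in LNP-Sirpa NK cells, against 1547 and 1154 CPM in control NK cells. After thinning, 62.8% and 17.5% of LNP-Sirpa NK cells held at least 5 UMIs of the list, against 23.8% and 14.7% of control NK cells (95.4% and 67.2% against 88.2% and 84.8% unthinned). The same share was 93.1% and 49.4% in LNP-Sirpa CD8 T cells, against 19% and 15.5% in control CD8 T cells, and 98.7% and 67.2% in LNP-Sirpa phagocytes, against 32.9% and 26.6% in control phagocytes. In LNP-Sirpa replicate 2 the NK share lay within the control range, while the shares of CD8 T cells and phagocytes lay above theirs.

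Isg20, an interferon-induced exonuclease, stood at 95.8 and 75.6 CPM in LNP-Sirpa NK cells, against 35.2 and 44.5 CPM in control NK cells (log2 difference 1.14 ± 0.24, SE, edgeR adjusted p = 0.048). It did not pass without control replicate 1 (edgeR adjusted p = 0.469) or LNP-Sirpa replicate 1 (edgeR adjusted p = 0.0801). Ifi213, a PYHIN family gene, rested on 123 and 3 UMIs in LNP-Sirpa NK cells, against 5 and 3 UMIs in control NK cells (log2 difference 3.56 ± 0.63, SE, edgeR adjusted p = 0.0342), so 1 library carried it and its fold is uncertain. Of 24 interferon gamma response genes 22 were tested, none passed, and the median was 0.90, against 1.06 in CD8 T cells and 1.67 in phagocytes. None of 19 MHC class I presentation genes passed in NK cells, where the median was 0.21, against 1.07 in phagocytes. For 12 of these 19 genes the treatment difference in NK cells and in phagocytes differed (edgeR adjusted p under 0.05 for the interaction), beside 1.06% of all genes in that test.

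**Figure D4:**
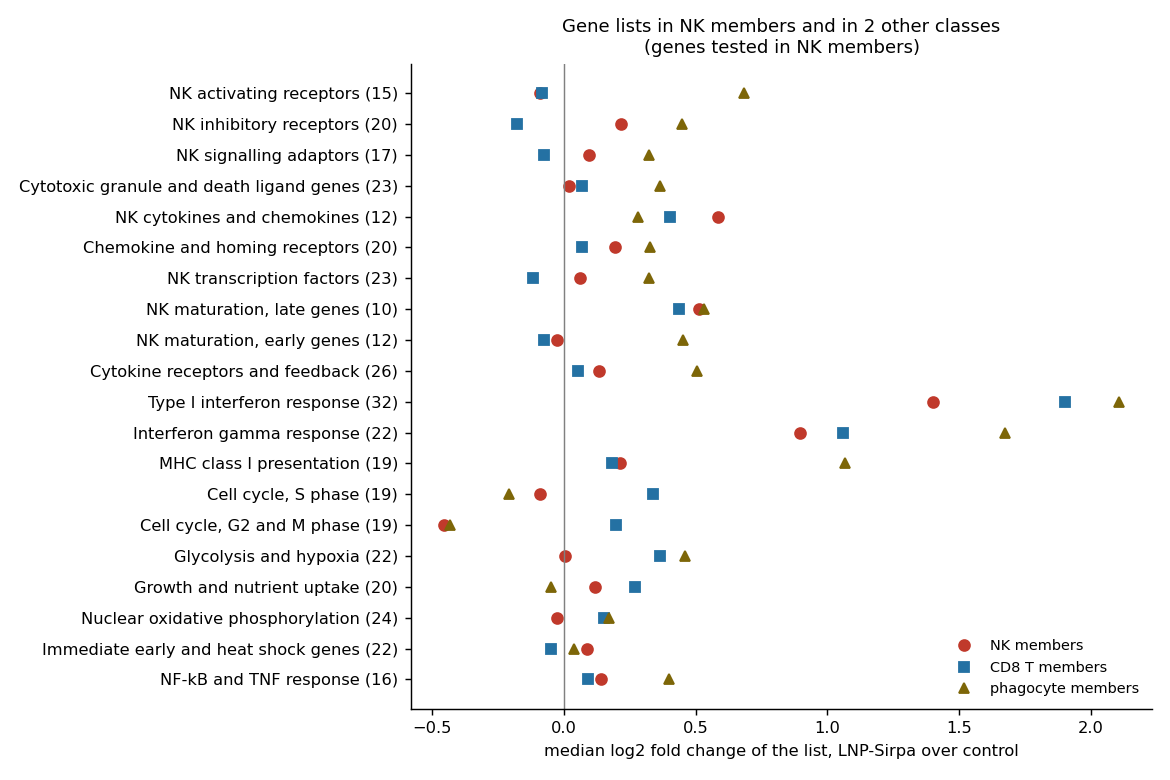
Median log2 difference of LNP-Sirpa against control for 20 gene lists in NK cells, CD8 T cells and phagocytes, with the number of genes tested in NK cells in brackets. In NK cells the type I interferon list stood highest at 1.40 and the G2 and M phase list lowest at −0.45.

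Cell cycle, metabolic and stress lists held no called gene. Medians were −0.09 for 19 S phase genes, −0.45 for 19 G2 and M phase genes, 0.00 for 22 glycolysis and hypoxia genes, −0.02 for 24 oxidative phosphorylation genes, 0.12 for 20 growth genes and 0.09 for 22 immediate early and heat shock genes. The G2 and M phase median was 0.27 without control replicate 1. After thinning, at least 2 S phase UMIs were present in 28.2% and 24.6% of LNP-Sirpa NK cells, against 33.3% and 24.5% of control NK cells (70% and 58.6% against 83.5% and 73.3% unthinned).

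Most of the remaining called genes had their higher level in phagocytes. Of the 48 called genes, 33 stood below the phagocyte level in NK sums of all 4 libraries, among them 29 of the 39 higher genes, and 8 stood above it in all 4. The 8 were Gzma, Gzmb, Isg20 and Bola3 among higher genes and Ccl1, Pglyrp1, Dscam and Ccdc184 among lower genes, where Bola3 and Ccdc184 were named after their values were seen. These counts were not set beside those of all 9366 tested genes. Whether called genes lean towards phagocyte genes more than other tested genes was thus not tested. Arg1, the arginase of tumour phagocytes, stood at 599 and 630 CPM in LNP-Sirpa NK sums, against 149 and 76.1 CPM in control NK sums (log2 difference 2.42 ± 0.28, SE, edgeR adjusted p = 0.00299). Phagocytes held 2495 and 6140 CPM of Arg1 in LNP-Sirpa libraries, against 1171 and 1394 CPM in controls. After thinning, an Arg1 UMI was found in 33.6% and 57.9% of LNP-Sirpa NK cells and in 70% and 95.1% of LNP-Sirpa phagocytes, against 15.5% and 5.88% of control NK cells and 48.5% and 52.2% of control phagocytes. The Arg1 shares were lower in NK cells than in phagocytes in every library. In both classes they were higher in LNP-Sirpa libraries, though the control replicates stood in opposite order. How much of the NK level came from phagocyte RNA was not tested. Arg1 did not pass without LNP-Sirpa replicate 2 (2.30, edgeR adjusted p = 0.187).

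AA467197, the mouse gene also known as Nmes1, stood at 386 and 458 CPM in LNP-Sirpa NK sums, against 131 and 153 CPM in control NK sums (log2 difference 1.57 ± 0.21, SE, edgeR adjusted p = 0.00358). Ifitm3, an antiviral membrane protein, stood at 704 and 361 CPM in LNP-Sirpa NK sums, against 217 and 192 CPM in control NK sums (1.38 ± 0.24, SE, edgeR adjusted p = 0.0226). Across 16 alternatives the log2 differences ran from 0.90 to 1.78 for AA467197 and from 0.90 to 1.70 for Ifitm3. Both genes stood below the phagocyte level in all 4 libraries. At a phagocyte limit of 25 per 10000 neither passed. AA467197 also did not pass in thinned cells, and Ifitm3 did not pass without the 5% highest Scrublet scores, without a T cell UMI or without barcodes rich in another cell type's UMIs. Samhd1, a nucleotide hydrolase that restricts viruses, had a log2 difference of 1.54 (edgeR adjusted p = 0.0153) and did not pass without LNP-Sirpa replicate 1 (edgeR adjusted p = 0.107). Emc6, Cyc1 and Cmtm7, which encode a membrane insertion subunit, the cytochrome c1 of respiratory complex III and a MARVEL domain protein, had log2 differences of 1.71, 1.40 and 1.16 (edgeR adjusted p = 0.0237, 0.0422 and 0.048). None of these 3 passed without control replicate 1, where the edgeR adjusted p values were 0.157, 0.421 and 0.516.

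**Figure D5:**
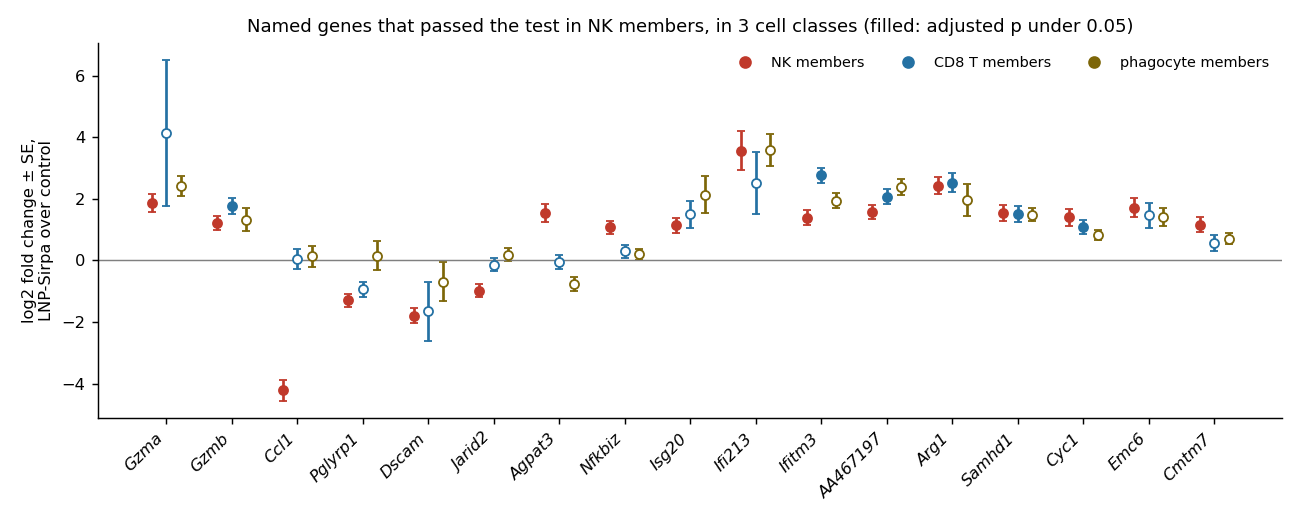
Log2 difference of LNP-Sirpa against control with its standard error for the 17 named genes that passed in NK cells, in NK cells, CD8 T cells and phagocytes; filled points mark an edgeR adjusted p under 0.05. Ccl1 lay at −4.22 in NK cells, and Agpat3 lay at 1.54 in NK cells, above its difference in both other classes.

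Sirpa and its ligand Cd47 were given for NK cells because the treatment is named for Sirpa. Sirpa, an inhibitory receptor of phagocytes, stood at 94.2 and 28.1 CPM in LNP-Sirpa NK sums, against 96.2 and 70.1 CPM in control NK sums, with a log2 difference of −0.29 ± 0.38 (SE, edgeR adjusted p = 0.916). Phagocytes held 468 and 337 CPM of Sirpa in LNP-Sirpa libraries, against 540 and 544 CPM in controls. Without LNP-Sirpa replicate 1 the NK difference was −1.50 and without LNP-Sirpa replicate 2 it was 0.08, so no direction held across the libraries. Cd47, which tells phagocytes not to engulf a cell, stood at 487 and 430 CPM in LNP-Sirpa NK cells, against 288 and 316 CPM in control NK cells. Its groups did not overlap, and the log2 difference of 0.60 ± 0.19 (SE, edgeR adjusted p = 0.251) did not pass.

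The treatment difference itself was compared between NK cells and the other classes in models with the library as a block. Against CD8 T cells, 42 of 11112 genes differed (0.378%), 22 higher (0.198%) and 20 lower (0.18%) in NK cells, and against phagocytes 151 of 14246 (1.06%), 33 higher (0.232%) and 118 lower (0.828%). Ccl5 stood apart from CD8 T cells, since its difference in NK cells exceeded that in CD8 T cells by 1.80 (edgeR adjusted p = 6.07e-07). Ccl1 stood apart in the other direction, with its difference in NK cells below that in CD8 T cells by a log2 value of −4.56 (edgeR adjusted p = 0.000146), where CD8 T cells held 116 and 59.2 CPM in LNP-Sirpa libraries, against 114 and 64.2 CPM in controls. This difference rests on the same few NK cells with many Ccl1 UMIs. For Ifitm3 the NK difference was below that of CD8 T cells (−1.43, edgeR adjusted p = 0.000187), and for Pglyrp1 it was below that of phagocytes (−1.43, edgeR adjusted p = 0.000164). The Pglyrp1 interaction did not pass without control replicate 1 (edgeR adjusted p = 0.0655) or LNP-Sirpa replicate 1 (−0.74, edgeR adjusted p = 0.251). For Gzma and Gzmb neither interaction passed, so their treatment difference was not shown to differ between NK cells and the other classes.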

How the data were processed

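The labels describe droplet libraries (DNBelab C Series, polyA RNA, DNBSEQ-T7) of sorted CD45+ cells. UMI counts, whole numbers for each gene in each cell, were deposited by the authors, and per the file headers PISA 1.0 wrote them. The submitters' processing notes name the aligner STAR 2.5.1b and the build GRCm39. Neither the cell caller nor the annotation is named in these sources. No correction for free RNA was applied here, and free RNA can place genes of abundant cells in every class. Sums covered 27405 genes, and genes missing from a library's list were set to 0.

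From the counts, UMIs were summed per library over NK cells, CD8 T cells (at least 2 CD3 and 2 CD8 UMIs, at most 1 receptor UMI, below the phagocyte limit) and phagocytes. Phagocytes lay at or above that limit, with at least 2 UMIs of Csf1r, Cd68 and Adgre1 together and at most 1 receptor, CD3 or CD8 UMI. The 2 groups were compared with the quasi-likelihood F test of edgeR 4.0.16 under R 4.3.3 after TMM and filterByExpr (robust), with Benjamini-Hochberg adjustment over all genes and a threshold of 0.05. A model of treatment by class, with the library as a block, gave the interactions. Shares used an exact permutation test over libraries and 95% Wilson intervals. Cells were thinned to 2000 UMIs for shares of cells with a UMI. Scrublet in scanpy 1.11.5 called 1 and 3 of all barcodes in LNP-Sirpa libraries and 3 and 1 in control libraries, too few for a working caller, so the 5% highest scores were left out as an alternative instead. On simulated NK sums, 9089 genes were tested, among them 107 changed by 1 and 85 changed by 2 on the log2 scale, and 14 unchanged genes were called. Genes sharing sequence or lying antisense to each other may be miscounted, as the strand setting is not given in the sources used here.

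The members, marker lists and gene lists were chosen with earlier results of these data known. Named genes were the NK markers, Sirpa and Cd47, the 10 largest called rises and 10 largest called falls among genes averaging 50 CPM or more, up to 4 called members per list and the 4 highest means per NK list. Not every gene so named is given. Other tools were DESeq2 1.42.0, limma 3.58.1, Python 3.11.15, numpy 2.4.6, pandas 2.3.3, scipy 1.17.1 and matplotlib 3.10.9. Promoter windows came from RefSeq on GRCm38.p6, so their coordinates differ from the build of the counts. Some alternatives were tried, and their effect is given at the end.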

Additional observations from a re-analysis of the deposited data

Results flagged for a closer look

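For 18 results the treatment difference in NK cells differed from that in another cell class by the interaction test (edgeR adjusted p under 0.05, log2 values, NK minus the other class). Against CD8 T cells the differences were 1.56 for Agpat3, −1.43 for Ifitm3, −4.56 for Ccl1, −0.87 for Jarid2, −1.92 for Klrb1b, 1.80 for Ccl5 and −1.51 for Ccr2, the receptor of monocyte chemokines. All of these kept their sign without any 1 library. Agpat3 did not pass without control replicate 2 (edgeR adjusted p = 0.0613), Jarid2 without LNP-Sirpa replicate 1 (edgeR adjusted p = 0.164), and Klrb1b without control replicate 2 (−1.22, edgeR adjusted p = 0.486).

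Against phagocytes the differences were −0.78 for AA467197, 2.22 for Agpat3, −4.59 for Ccl1, −1.32 for Dscam, −1.43 for Pglyrp1, −1.18 for Jarid2, −1.20 for Tnfrsf9, −1.11 for Cd69, −1.09 for Thy1, −1.15 for Il2rg and 0.87 for Nfkbiz. Of these 11, all but Agpat3 and Ccl1 were lost in at least 1 fit without 1 library, and Dscam changed its sign. Without control replicate 1, AA467197, Dscam, Pglyrp1, Tnfrsf9, Cd69, Thy1, Il2rg and Nfkbiz did not pass. The same held for AA467197, Dscam, Jarid2 and Nfkbiz without control replicate 2, for Dscam, Pglyrp1, Thy1 and Nfkbiz without LNP-Sirpa replicate 1, and for AA467197 without LNP-Sirpa replicate 2. Pglyrp1 did not pass without control replicate 1 (edgeR adjusted p = 0.0655) or LNP-Sirpa replicate 1 (−0.74, edgeR adjusted p = 0.251). Tnfrsf9, Cd69, Thy1 and Il2rg are lymphocyte genes that stood far lower in phagocytes. Tnfrsf9 stood at 729 and 630 CPM in LNP-Sirpa NK cells and at 97.7 and 97.5 CPM in LNP-Sirpa phagocytes, against 653 and 589 CPM in control NK cells and 38.2 and 50.1 CPM in control phagocytes. LNP-Sirpa libraries held more CD8 T cells and fewer phagocytes than controls, and the part of lymphocyte RNA in the phagocyte sums was not tested.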

How the results depend on the processing

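Replicate numbers were not read as a pairing: deviations of same-numbered libraries correlated at 0.0116 over 9366 genes, with 2 pairs. With the replicate block 224 genes passed in NK sums instead of 48, with 21 members of NK lists instead of 3 and 28 of programme lists instead of 3. Leaving out 1 library gave from 88 to 408 called genes, from 4 to 28 NK list members and from 10 to 43 programme list members, with the lone library assumed to vary like the other group. DESeq2 called 28 genes (5 and 1 list members), no filter on low counts 240 (17 and 33), the 5% highest Scrublet scores left out 26, no T cell UMI 9 (1 and 0), the phagocyte limit of 25 per 10000 gave 7 (1 programme member), at least 3 receptor UMIs gave 1 programme member, and thinned cells gave 10 and 6 members, with 11 of 47 calls shared with the 48. Leaving out cells with 20 or more UMIs of another cell list, an alternative chosen after seeing the data, gave 80 genes (8 and 8 members). Interactions with CD8 T cells numbered 18 with DESeq2, 81 without a filter, 75 without high Scrublet scores, 8 without T cell UMIs and 70 to 150 without 1 library, instead of 42. Interactions with phagocytes numbered 34 with DESeq2 and 37 to 275 without 1 library, instead of 151. The Dscam interaction with phagocytes ran from −1.71 to 0.11 without 1 library, and turned its sign without LNP-Sirpa replicate 1. The log2 difference of the NK share was −0.80 among barcodes below the phagocyte limit and from −1.33 to 0.90 without 1 library. Differences in share of cells were 25.8 points at 1000 UMIs and 14.3 unthinned for Gzmb (29.6 at 2000), −18.3 unthinned for G2 and M phase (−3.72) and −5.16 unthinned for interferon UMIs (20.9). The cause of these changes was not tested. Of 57 named genes, 56 (all but Jarid2) kept their direction and side of the threshold with DESeq2 size factors in edgeR and 57 with the stricter cell filter. Depth limits LNP-Sirpa replicate 2 most, with 58 cells.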
